A study of Drosophila melanogaster with 16 samples.

Results

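Convergent genes lie end to end, so that an RNA polymerase that runs past the end of one gene transcribes the other in the antisense direction. The members here are pairs of neighbouring Drosophila genes whose 3′ ends face each other across a gap of at most 500 bases: the first gene lies on the plus strand, the next one on the minus strand, with 1 transcript model (the one with the longest coding sequence, CDS) standing for each gene. The rule uses positions only, and no measured value. It found 1083 pairs with 2166 genes, 15.2% of the 14229 genes in the files, among 3876 adjacent convergent pairs with any gap or overlap. The median gap was 117 bases and the quartiles were 46 and 253 bases. There were 491 pairs with a gap of 0 to 100 bases, 249 with over 100 to 200 and 343 with over 200 to 500. The limit cuts through a flat part of the distribution, with 44 pairs at over 450 to 500 bases and 34 at over 500 to 550. No gene belonged to more than 1 pair, 18 members had no CDS, and 149 had a further gene on the opposite strand across their span, whose RNA cannot be told apart from that of the convergent neighbour.

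The RNA came from OSS cells, a cultured line of ovarian follicle cells of Drosophila melanogaster, electroporated with 500 pmol of siRNA per 10 cm plate and grown for 6 days. The siRNA was directed against GFP (siGFP, the negative control), piwi (siPIWI), the Paf1 gene (siPAF1; atms in the files) or both (the double knockdown). Each kind of cell gave RNA from NUN pellets, a term the labels do not spell out, and from cytoplasm lysates, in 2 libraries, one from each of the sets titled OSS_146 and OSS_147. Pairs of values below are given in that order. The labels do not tie the titles to separate cultures, and the p-values therefore rest on variation between libraries that may be technical. In such bulk RNA, fewer cells of a type and less RNA per cell cannot be told apart.

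Transcription by RNA polymerase II does not stop at the poly(A) site. The nascent RNA is cleaved there, an exonuclease degrades the downstream piece, and the polymerase is released some way beyond the gene. The Paf1 complex travels with elongating polymerase and is known to help link elongation with 3′ end processing. Piwi, with its small RNAs, silences transposons in the nucleus of follicle cells by lowering their transcription. The question addressed is whether RNA opposite to a gene whose neighbour ends close by differed between the knockdowns and the control. The measure was the count of uniquely aligned reads on a gene's CDS on the strand opposite to that gene (opposite-strand count), beside the count on the gene's own strand and on the own strand of the neighbour.

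The NUN libraries held 2080840 to 4623982 own-strand and 116674 to 278203 opposite-strand CDS counts over all genes, and 67.2% to 78.5% of the members had an opposite-strand count. The siGFP library OSS_146 stood apart. Scaled on opposite-strand counts, its library size was 0.32 higher on the log2 scale than when scaled on own-strand counts, against -0.11 to 0.08 in 6 of the others, so the main results are also given without it. The double knockdown library OSS_147 stood apart on the other side, at -0.30. Summed markers of follicle cells (tj, fs(1)Yb and others) reached 5079 to 6372 CPM (the usual scaling of counts to library size, here the own-strand size). One of them, Sox100B, was at 0 to 0.91 CPM. Those of the germline summed to 5.31 to 15.3 CPM and those of neurons to 4.96 to 6.90 CPM. The muscle markers summed to 2923 to 3840 CPM, from sls at 2914 to 3832 CPM, while Mhc had 3.95 to 15.5 and Act88F 0 to 0.45 CPM. The 5 blood cell markers summed to 252 to 300 CPM with siGFP and 367 to 392 CPM with siPAF1, and did not move together. Among the 3 tested, the siPAF1 log2 changes were 0.95 for srp, -0.92 for Pxn and 0.04 for Hml, none past the adjusted threshold; their part in any result was not tested. The targeted atms, itself a member, had 82.5 and 58.2 CPM in the siGFP libraries OSS_146 and OSS_147 and 26.2 and 18.3 CPM with siPAF1 in NUN. In the cytoplasm the atms counts were 122 and 132 with siGFP, against 17 and 6 with siPAF1. The NUN change of atms was -1.66 (SE 0.33) on the log2 scale and missed the threshold (edgeR quasi-likelihood test, adjusted p = 0.238). The target piwi is no member. Its NUN level was 1058 and 1006 CPM with siGFP and 875 and 591 CPM with siPIWI. With both siRNAs, library OSS_146 held piwi at 1070 CPM, above both siGFP values, and library OSS_147 at 747 CPM. Cytoplasm counts of piwi, not scaled to library size, were 211 with siGFP, 133 with siPIWI and 243 with both siRNAs in OSS_146. For OSS_147 they were 237, 29 and 30. A lower NUN level of piwi in doubly treated cells was therefore seen in OSS_147 only.

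In control cells the opposite-strand level of a member was graded by the own-strand level of its neighbour. Where the neighbour had an own-strand level of 0 (275 genes), the median opposite-strand level was 0 CPM per kb of CDS in both siGFP libraries, and 16.7% and 24.7% of the genes had any opposite-strand count. It was 0.53 and 0.55 CPM per kb where the neighbour had over 1 to 10 CPM per kb (300 genes), and 1.86 and 1.64 CPM per kb where it had over 10 to 100 (1094 genes). Where the neighbour exceeded 100 CPM per kb (206 genes), the median opposite-strand level reached 3.67 and 3.34 CPM per kb, and 94.2% and 95.1% of the genes had an opposite-strand count. The gradient is a description across genes, which are not independent replicates. In 654 of the 1066 pairs with a CDS in both genes, 61.4%, both genes had at least 1 CPM per kb on their own strand; in 292 pairs 1 gene did, and in 120 neither.

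**Figure D1:**
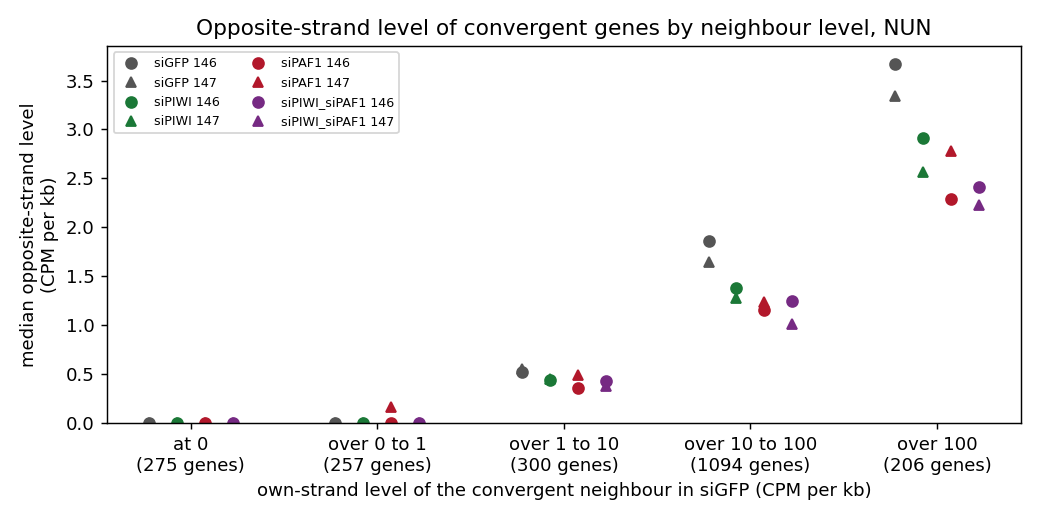
Median opposite-strand level of convergent genes (vertical axis, CPM per kb of CDS) in 5 classes of the neighbour's own-strand level in siGFP (horizontal axis, CPM per kb), 1 point per NUN library, with the number of genes under each class. Medians rise from 0 to 3.67 and 3.34 CPM per kb in the siGFP libraries, which lie above the 6 knockdown libraries in the 3 highest classes.

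Within a pair the antisense RNA lay mostly on the weaker gene. Of 563 pairs whose genes differed at least 4-fold in own-strand level per kb and whose opposite-strand levels were unequal, 480 (85.3%) had the higher opposite-strand level on the weaker gene. Relative to the neighbour, the opposite-strand level was small. Over 1285 members whose neighbour averaged at least 10 CPM in siGFP, its median was 4.65% and 4.06% of the neighbour's own-strand level per kb in the siGFP libraries. It was lower at longer gaps: the siGFP medians were 5.69% and 5.20% at gaps of 0 to 100 bases, 4.43% and 3.81% at over 100 to 200 and 3.85% and 3.24% at over 200 to 500. Wider convergent gaps gave lower values, 2.36% and 2.33% at over 500 to 2000 bases (492 genes) and 1.46% and 1.38% beyond 2000 bases (590 genes). The order of the classes was the same in both siGFP libraries. The opposite-strand share of all CDS counts did not follow it. With siGFP this share was 5.37% and 4.94% in the members and 4.82% and 3.82% at over 500 to 2000 bases. It was 6.62% and 5.50% beyond 2000 bases, and 6.52% and 5.01% in genes with no adjacent convergent neighbour. Overlapping convergent genes had 10.0% and 8.07%. The differences between classes were not tested.

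The pairs with the most opposite-strand RNA were of several kinds. Muc14A, which codes for a very long mucin (chromosome X, 15903161 to 15955708, plus strand), had opposite-strand levels of 1636 and 2683 CPM in siGFP and held 18.8% of all opposite-strand counts of the members over the 8 NUN libraries. Its neighbour CG12395, 226 bases away, had own-strand counts of 0 in both siGFP libraries, so the RNA opposite to Muc14A had no counterpart on the neighbouring CDS. The transcription factor gene bab1 (chromosome 3L, 1036369 to 1101089, minus strand) was next, with 325 and 146.1 CPM in siGFP, more than its own-strand 52.6 and 32.0 CPM, and its neighbour CG9205, 70 bases away, had 112 and 77.8 CPM on its own strand. CG11023 (chromosome 2L, 7529 to 9484, plus strand) was almost wholly antisense, with opposite-strand counts of 273 and 263 against own-strand counts of 0 and 2. It ends 354 bases from l(2)gl, a cell polarity and tumour suppressor gene, which had 715 and 724 CPM on its own strand and 1 and 0 opposite-strand counts.

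Other strong pairs showed the same one-sidedness. Mcr, a gene of the complement-like macroglobulin family, had 113 and 150 CPM opposite to it in siGFP, while its neighbour Trf, which codes for a TBP-related factor, had 2 and 0 opposite-strand counts. CG43163 had 105 and 114 CPM of opposite-strand RNA and its neighbour Gug, a gene for an Atrophin-type corepressor, had 1.36 and 3.70 CPM. Tg, which codes for transglutaminase, had 125 and 92.3 CPM opposite to it, but its neighbour CG7367, 13 bases away, had an own-strand count of 1 in each siGFP library. Highly active pairs did not have to carry much antisense RNA. His2Av, a histone H2A variant gene, and BM-40-SPARC, which codes for a collagen-binding matrix protein, had own-strand levels of 83 and 237 CPM and of 500 and 323 CPM in siGFP, and opposite-strand counts of 4 and 2 and of 7 and 17.

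Knockdown libraries had a lower median opposite-strand level relative to the neighbour than control libraries. The median over the 1285 members was 4.65% and 4.06% of the neighbour's level with siGFP, 3.66% and 3.14% with siPIWI, 2.98% and 3.31% with siPAF1, and 3.15% and 2.44% in the double knockdown. Both siGFP libraries lay above all 6 knockdown libraries, and the 3 kinds of knockdown overlapped each other; no test was made of these medians. At gaps of over 500 to 2000 bases the siGFP values, 2.36% and 2.33%, lay just above the knockdown range of 1.77% to 2.31%. In convergent pairs with gaps over 2000 bases both siGFP values, 1.46% and 1.38%, lay inside the range of the knockdown libraries, 1.13% to 1.80%. The summed counts gave a less clear picture. The opposite-strand share of all CDS counts of the members was 5.37% and 4.94% with siGFP, 4.18% and 4.90% with siPIWI, 4.46% and 4.0% with siPAF1 and 5.0% and 4.01% in the double knockdown. There the ranges of siGFP and of the double knockdown overlapped, and without Muc14A, whose opposite-strand RNA differed between libraries of 1 group, the siGFP shares were 4.75% and 3.90%, siPIWI 3.91% and 3.40%, siPAF1 3.97% and 3.49%, and the double knockdown 4.07% and 3.0%. Without Muc14A the siGFP library OSS_147 lay within the range of the knockdown libraries. Over all genes the share was 6.79% and 5.50% with siGFP and 5.68% and 5.31% with siPIWI. It was 6.23% and 5.23% with siPAF1 and 6.47% and 4.70% in the double knockdown. The members, with Muc14A included, lay below all genes in each NUN library. With all alignments in place of unique ones, the members' share was 6.48% and 6.57% with siGFP and 4.64% and 7.28% with siPIWI. The siPAF1 and double knockdown libraries then lay between 4.81% and 6.38%.

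**Figure D2:**
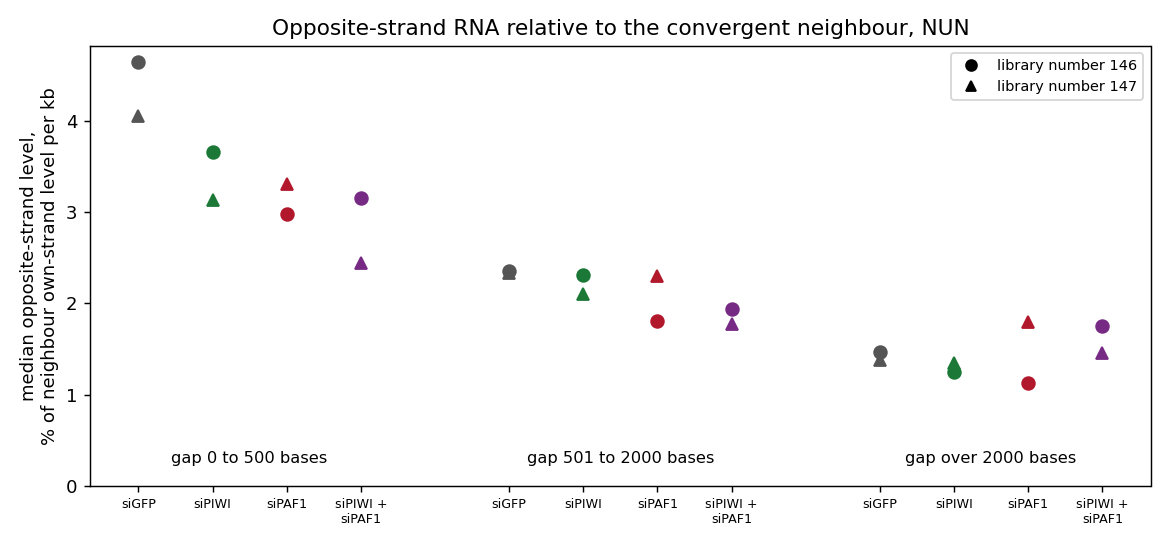
Median opposite-strand level as a percentage of the convergent neighbour's own-strand level per kb (vertical axis) in each NUN library, for gaps of 0 to 500, over 500 to 2000 and over 2000 bases; colours stand for the siRNA and symbols for the library number. At gaps up to 500 bases the siGFP libraries (4.65% and 4.06%) lie above the 6 knockdown libraries (2.44% to 3.66%); beyond 2000 bases they do not.

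Tested gene by gene, few members passed the threshold. Of the 2166 members, 663 had enough opposite-strand counts to be tested, beside 3337 genes in all; a member that passed this filter was one with antisense RNA in at least some libraries. The 3 knockdowns were each compared with the same siGFP libraries and the 3 sets of values are not independent. The median log2 change of the tested members was -0.33 with siPIWI, -0.38 with siPAF1 and -0.50 in the double knockdown, beside -0.27, -0.21 and -0.29 over all genes tested. Among the classes of gene end, the siPAF1 median was -0.27 for overlapping convergent genes (1035), -0.22 at gaps of over 500 to 2000 bases (245), 0.03 beyond 2000 bases (347) and -0.12 for genes with no adjacent convergent neighbour (1047). With the siGFP library OSS_146 left out, these 4 medians were -0.05, 0.03, 0.21 and 0.21. Without the siGFP library OSS_146 the medians of the members shrank to -0.17, -0.15 and -0.30, and those of all genes tested to -0.08, 0.05 and -0.11. In the double knockdown, the median without its library OSS_147 was -0.35 for the members and -0.16 for all genes tested. With libraries scaled on opposite-strand counts, the medians of all genes tested moved to -0.03, 0.01 and 0.04 and those of the members to -0.09, -0.15 and -0.16. Over all settings tried the members' median lay below that of all genes by a difference of -0.26 to -0.08 with siPAF1, -0.13 to -0.03 with siPIWI and -0.33 to -0.08 in the double knockdown. The part of the siGFP library OSS_146 in the lower values was not tested beyond leaving it out, and the margins carry no test.

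**Figure D3:**
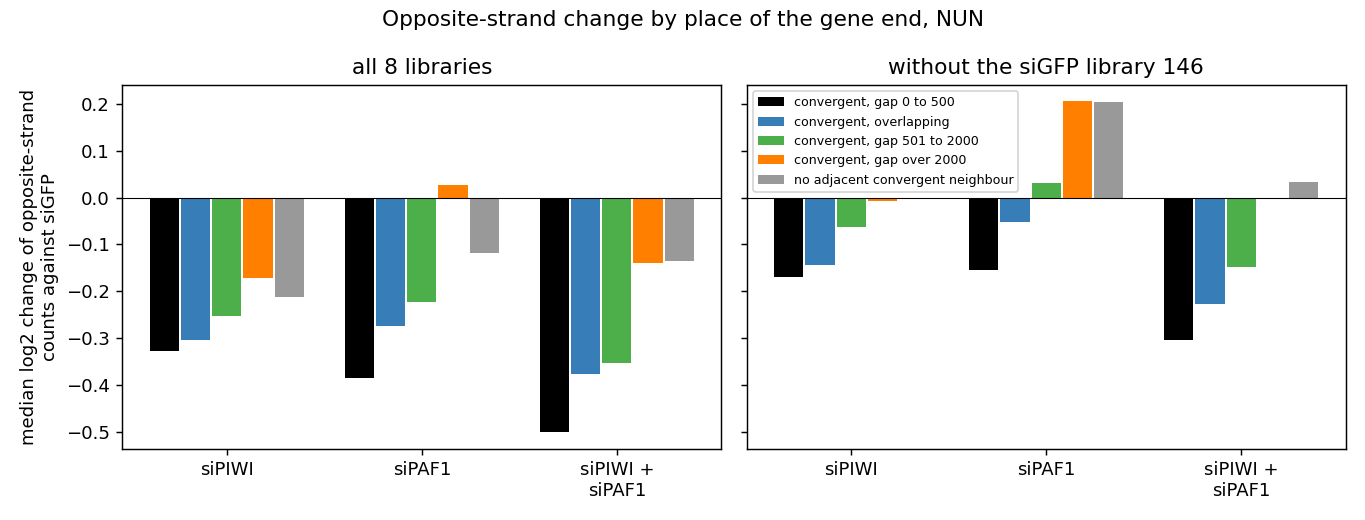
Median log2 change of opposite-strand counts against siGFP (vertical axis, bars from 0) for 5 classes of gene end and 3 knockdowns, with all 8 NUN libraries (left) and without the siGFP library OSS_146 (right). With all libraries the convergent genes with gaps of 0 to 500 bases have the lowest bar in each knockdown (-0.33, -0.38 and -0.50); without the library these bars are -0.17, -0.15 and -0.30.

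With siPIWI, 2 members rose (0.302% of 663) and 0 fell, beside 1.41% of all genes tested that rose and 0% that fell (edgeR quasi-likelihood test; the DESeq2 Wald test also gave 2 and 0, beside 1.02% and 0% of all genes). At an unadjusted p under 0.05, 8 members (1.21%) were higher and 23 (3.47%) lower, beside 2.85% and 2.64% of all genes tested. These were 11 (1.35%) and 9 (1.1%) without the siGFP library OSS_146, beside 2.35% and 1.1%. Octbeta3R, which codes for an octopamine receptor (chromosome 3R, 8337292 to 8373951, minus strand), had opposite-strand counts of 12 and 5 with siGFP, 161 and 51 with siPIWI, 2 and 14 with siPAF1 and 17 and 14 in the double knockdown. Both siPIWI libraries lay above the other 6, at 33.5 and 25.1 CPM, and the log2 change was 3.10 (SE 0.57, edgeR adjusted p = 0.0034). Its neighbour Hsp70Bc, a heat shock protein gene 108 bases away, had own-strand counts of 2 and 0 with siGFP and 10 and 4 with siPIWI, and the neuropeptide gene hug lies across Octbeta3R on the strand of this RNA. Ih, which codes for a cation channel opened by hyperpolarisation (chromosome 2R, 10163809 to 10187349, plus strand), had 19 and 21 opposite-strand counts with siGFP, 108 and 94 with siPIWI, 14 and 13 with siPAF1 and 36 and 52 in the double knockdown. Again the siPIWI libraries were highest, with a log2 change of 2.11 (SE 0.46, edgeR adjusted p = 0.017). Its neighbour tej, a germline piRNA pathway gene 258 bases away, had own-strand counts of 3 and 3 with siGFP and 7 and 9 with siPIWI.

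With a library left out, 1 arm of a comparison holds 1 library, which is assumed to vary like the other groups, and a call lost at a similar fold change does not show that it rested on that library. Without the siGFP library OSS_147 neither siPIWI call passed the edgeR test, at log2 changes of 2.43 for Octbeta3R (adjusted p = 0.151) and 1.97 for Ih (0.315). Octbeta3R also missed the threshold without the siPIWI library OSS_146 (2.86, edgeR adjusted p = 0.225), as did Ih without the siPIWI library OSS_147 (1.52, 0.572) or the siGFP library OSS_146 (2.26, 0.053). Just short of the threshold was the serpin gene Spn77Bb (chromosome 3L, 20314117 to 20315420, plus strand), with opposite-strand counts of 26 and 34 in the siGFP libraries and 224 and 50 in the siPIWI libraries (log2 change 1.63, SE 0.43, edgeR adjusted p = 0.065). There the neighbour CG6434, 56 bases away, moved in the same direction, with own-strand counts of 15 and 29 in siGFP and 164 and 46 in siPIWI (log2 change 1.78, SE 0.36, adjusted p = 0.253). The odorant receptor gene Or1a had opposite-strand counts of 0 and 2 in siGFP, 26 and 5 in siPIWI, 2 and 2 with siPAF1 and 11 and 10 in the double knockdown, and its neighbour CG32816, 18 bases away, had own-strand counts of 1 and 3, 25 and 7, 4 and 5, and 3 and 9.

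With siPAF1, 3 members rose (0.452% of 663, beside 0.539% of all genes tested) and 5 fell (0.754%, beside 0.719%). These shares lie near the background. At an unadjusted p under 0.05, 93 members (14.0%) were lower, beside 11.7% of all genes tested, and 13 (1.96%) were higher, beside 4.88%. Without the siGFP library OSS_146 these were 32 (3.92%) lower, beside 3.24%, and 21 (2.57%) higher, beside 3.73%. The DESeq2 Wald test called 2 higher and 5 lower, beside 0.479% and 0.959% of all genes. At the adjusted threshold 0 members passed without the siGFP library OSS_146, where 0.0469% of all genes rose and 0% fell. Leaving out the siPAF1 library OSS_147 gave 42 members higher and 27 lower (4.95% and 3.18%), beside 7.35% and 2.27% of all genes. Leaving out the siPAF1 library OSS_146 gave 3 and 2, beside 0.251% and 0.351%, and leaving out the siGFP library OSS_147 gave 1 and 16, beside 0.32% and 1.97%.

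Opposite-strand RNA at CG3714 (chromosome 2L, 4189497 to 4198058, minus strand), listed today as Naprt and coding for an enzyme of NAD salvage, rose most clearly. Its counts were 52 and 73 with siGFP, 134 and 40 with siPIWI, 353 and 388 with siPAF1 and 285 and 225 in the double knockdown. In CPM the siPAF1 libraries held 125 and 101.4 and the double knockdown 120 and 80.3, all above the 19.7 to 27.9 of the other 4 libraries. The log2 change was 2.23 (SE 0.40) with siPAF1 and 2.05 (SE 0.40) in the double knockdown (edgeR adjusted p = 0.015 and 0.018). The neighbour lectin-24Db, a C-type lectin gene 211 bases away, followed the same order on its own strand, with 13.6 and 23.6 CPM with siGFP, 18.7 and 20.7 with siPIWI, 88.5 and 67.4 with siPAF1 and 57.9 and 59.6 in the double knockdown. Its log2 change with siPAF1 was 2.05 (SE 0.29) and missed the threshold in the own-strand test (edgeR adjusted p = 0.111). CG3714 itself had 78.0 and 73.4 CPM on its own strand with siGFP and 66.9 and 58.5 with siPAF1. Relative to the neighbour the opposite-strand RNA changed by 0.15 (SE 0.46) on the log2 scale with siPAF1. The siPAF1 call was lost when the siGFP library OSS_146 was left out (log2 change 2.20, adjusted p = 0.062).

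Med, which codes for the co-Smad Medea of BMP and activin signalling (chromosome 3R, 27436787 to 27440927, plus strand), had opposite-strand levels of 5.44 and 3.37 CPM with siGFP, 3.74 and 2.46 with siPIWI, 25.1 and 14.1 with siPAF1 and 23.1 and 11.8 in the double knockdown. The siPAF1 libraries and those of the double knockdown lay above the other 4, with a log2 change of 2.16 (SE 0.51, edgeR adjusted p = 0.033) with siPAF1. Its neighbour CG11539, 78 bases away, had own-strand levels of 8.16 and 9.76 CPM with siGFP and 29.0 and 12.5 with siPAF1 (log2 change 1.19, SE 0.47, adjusted p = 0.458). The cyclin gene CycG also lies across Med on that strand. CG33275 (chromosome 3L, 7586206 to 7632681, plus strand) had 4 and 3 opposite-strand counts with siGFP, 15 and 10 with siPIWI, 39 and 22 with siPAF1 and 11 and 5 in the double knockdown (siPAF1 log2 change 2.78, SE 0.68, edgeR adjusted p = 0.046), beside 923 and 1001 own-strand counts in siGFP. The siPAF1 libraries were the highest, and the double knockdown libraries, at 4.62 and 1.79 CPM, lay within the range of siGFP and siPIWI. Its neighbour CG33276, listed today as Urm1, a ubiquitin-like modifier gene, had own-strand counts of 8 and 5 with siGFP and 6 and 6 with siPAF1. Leaving out either siGFP library (OSS_146, then OSS_147) or the siPAF1 library OSS_146 ended both calls, at log2 changes of 2.52, 1.83 and 1.69 for Med (adjusted p = 0.116, 0.155 and 0.205) and 3.20, 2.38 and 2.04 for CG33275 (0.135, 0.162 and 0.259).

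The 5 members that fell with siPAF1 included CG13671 (chromosome 3L, 8292791 to 8295446, plus strand), whose opposite-strand counts were 306 and 343 with siGFP, 343 and 151 with siPIWI, 105 and 121 with siPAF1 and 98 and 104 in the double knockdown. The levels were 139 and 115 CPM with siGFP, 71.4 and 74.4 with siPIWI, and 31.6 to 41.1 in the other 4 libraries. The log2 change was -1.89 (SE 0.37) with siPAF1 and -1.70 (SE 0.37) in the double knockdown (edgeR adjusted p = 0.018 and 0.032). Its neighbour CG7194, only 17 bases away, was strongly expressed, at 838 and 867 CPM with siGFP and 571 and 721 with siPAF1. The change relative to that neighbour was -1.48 (SE 0.39) with siPAF1 and missed the threshold (adjusted p = 0.218). Leaving out the siGFP library OSS_146 or the siPAF1 library OSS_146 ended the siPAF1 call (log2 change -1.75 and -2.01, adjusted p = 0.114 and 0.078). A further gene, CG7197, lies across CG13671 on the same strand as CG7194.

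In the other 4 the siGFP library OSS_146 was the highest of the 8. The spectraplakin gene shot, which codes for a linker of microtubules and actin (chromosome 2R, 9751742 to 9798451, minus strand), had 138 and 86 opposite-strand counts with siGFP, 170 and 41 with siPIWI, 25 and 37 with siPAF1 and 38 and 19 in the double knockdown (siPAF1 log2 change -2.29, SE 0.50, edgeR adjusted p = 0.023). These stood beside 16470 and 18458 own-strand counts in siGFP, and with the longest-span model of shot the change was -0.48 (adjusted p = 0.747). CG4360 had 53.9 and 19.5 CPM with siGFP and 7.44 and 8.10 with siPAF1 (log2 change -2.22, SE 0.51, edgeR adjusted p = 0.032), beside its neighbour CG42668, an oxysterol-binding protein gene listed today as Orp8, at 692 and 565 and at 445 and 403 CPM on its own strand. CG15082 had 28.1 and 10.8 CPM with siGFP and 1.42 and 3.92 with siPAF1 (log2 change -2.77, SE 0.57, adjusted p = 0.020). CG3999 had 15.4 and 7.07 CPM with siGFP and 2.48 and 1.83 with siPAF1 (log2 change -2.36, SE 0.58, adjusted p = 0.047). The neighbours of CG15082 and CG3999, CG15098 and the deacetylase gene Sirt6, held own-strand levels of 213 and 228 and of 18.1 and 17.5 CPM with siGFP, and of 191 and 241 and of 14.9 and 22.5 CPM with siPAF1. Without the siGFP library OSS_146 the siPAF1 changes of shot, CG4360, CG15082 and CG3999 were -1.64, -1.32, -1.94 and -1.72, and none passed (adjusted p = 0.263, 0.533, 0.264 and 0.525). Without the siPAF1 library OSS_146 they missed the threshold too (log2 change -2.24, -2.17, -2.28 and -2.57, adjusted p = 0.075, 0.084, 0.078 and 0.078), and CG3999 also without the siPAF1 library OSS_147 (0.050).

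In the double knockdown, 2 members rose (0.302%, beside 0.45% of all genes tested) and 1 fell (0.151%, beside 0.15%). At an unadjusted p under 0.05, 11 members (1.66%) were higher and 80 (12.1%) lower, beside 4.17% and 9.71% of all genes tested. With the siGFP library OSS_146 left out these were 17 (2.08%) and 30 (3.67%), beside 3.03% and 3.38%. The DESeq2 Wald test called 2 higher and 4 lower, beside 0.569% and 0.509% of all genes. CG3714 and CG13671, described above, were among them. The third was stan, which codes for an atypical cadherin of planar cell polarity (chromosome 2R, 6561061 to 6608643, plus strand). Its opposite-strand counts were 35 and 44 with siGFP, 154 and 57 with siPIWI, 76 and 84 with siPAF1 and 159 and 156 in the double knockdown. In CPM these were 15.9 and 14.8, 32.0 and 28.1, 26.9 and 22.0, and 66.7 and 55.7, so both libraries of the double knockdown were highest, and the groups of siPIWI and siPAF1 lay between. The log2 change was 1.99 (SE 0.41, edgeR adjusted p = 0.020) in the double knockdown. On its own strand stan had 137 and 175 CPM with siGFP and 313 and 268 in the double knockdown (log2 change 0.89, SE 0.23, adjusted p = 0.467), while its neighbour Rab3, a gene for a small GTPase of synaptic vesicles 189 bases away, had 4 and 9 own-strand counts with siGFP and 6 and 7 in the double knockdown. With the siGFP library OSS_146 left out, 1 member passed (0.122% of 817, lower, beside 0.0469% of all genes) and none of CG3714, CG13671 and stan did (adjusted p = 0.095, 0.158 and 0.105). The 3 calls were also lost without the siGFP library OSS_147 (0.073, 0.057 and 0.119) or the double knockdown library OSS_146 (0.066, 0.094 and 0.062), and that of CG13671 without the double knockdown library OSS_147 (0.160). In these fits the log2 changes ran from 1.75 to 2.08, -1.83 to -1.56 and 1.87 to 2.05.

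**Figure D4:**
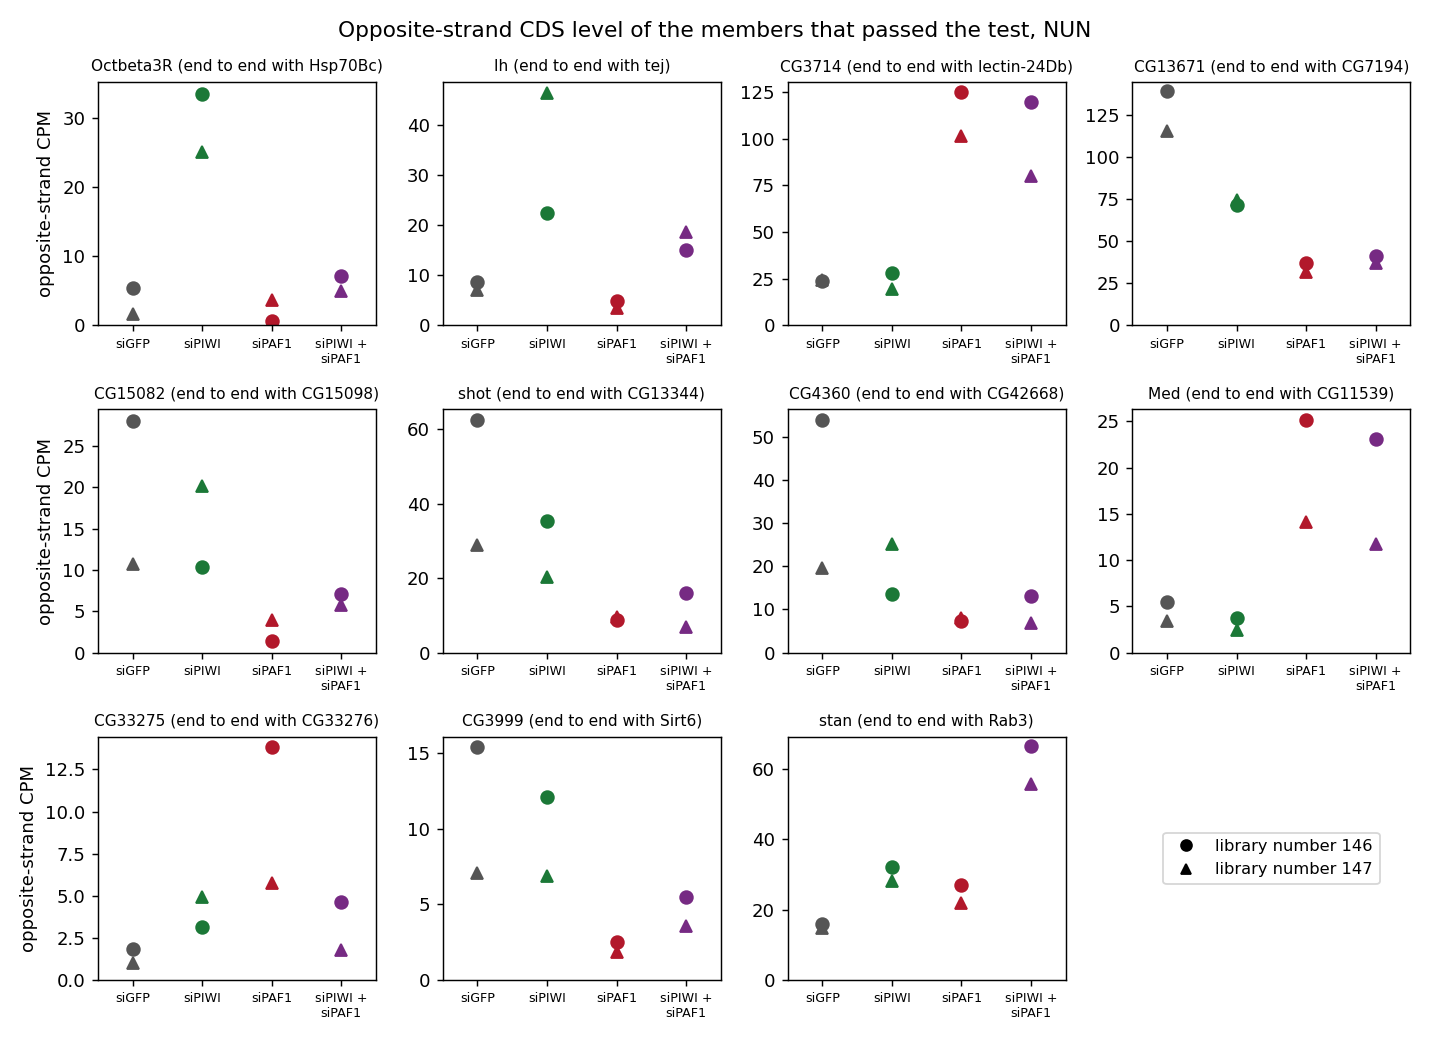
Opposite-strand CDS level (vertical axes, CPM, each from 0) of the 11 members that passed the opposite-strand test in at least 1 knockdown, 1 point per NUN library, circles for library OSS_146 and triangles for OSS_147. CG3714 and Med are high in all 4 libraries with Paf1 knockdown, Octbeta3R and Ih in both siPIWI libraries, and in shot, CG4360, CG15082 and CG3999 the siGFP library OSS_146 lies above every other library.

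Measured against the neighbour, 0 members passed the threshold in any knockdown (edgeR interaction test). The test held 624 members among 1095 genes with an adjacent convergent neighbour, and 0% of all of them were called in either direction. In simulated data it called 10 of 100 changes of log2 1. At an unadjusted p under 0.05, 79 members (12.7%) were lower relative to the neighbour with siPAF1, beside 9.41% of all rows tested, and 5 (0.801%) were higher, beside 2.28%. The corresponding counts were 61 lower (9.78%, beside 8.13%) and 5 higher (0.801%, beside 2.19%) in the double knockdown, and 15 lower (2.4%, beside 1.74%) and 1 higher (0.16%, beside 1.19%) with siPIWI. Without the siGFP library OSS_146, 20 members (2.68%, beside 2.69%) were lower with siPAF1, 23 (3.09%, beside 2.76%) in the double knockdown and 2 (0.268%, beside 0.373%) with siPIWI. No other tool was run on the ratio. The median log2 change of the ratio was -0.33 with siPIWI, -0.41 with siPAF1 and -0.47 in the double knockdown, against -0.11, -0.08 and -0.09 in the 246 genes with gaps over 2000 bases. Over all settings tried the members' median differed from that of all rows tested by -0.13 to -0.03 with siPIWI. The difference was -0.16 to -0.08 with siPAF1 and -0.21 to -0.09 in the double knockdown. The members made up 624 of the 1095 rows in the main fit. With siPAF1 the medians were -0.43, -0.44 and -0.40 at gaps of 0 to 100, over 100 to 200 and over 200 to 500 bases, and -0.32, -0.22 and -0.19 when the siGFP library OSS_146 was left out. The medians of the members were, with that library left out, -0.20, -0.25 and -0.34, and those of gaps over 2000 bases -0.05, 0.10 and 0.05. Without the siPAF1 library OSS_147, 12 members passed as higher and 3 as lower with siPAF1 (1.53% and 0.383%, beside 1.89% and 0.291% of all rows).

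The lowest p-values of the ratio test belonged to members of several kinds. CG42347, listed today as sqa, had 20 and 26 opposite-strand counts with siGFP and 5 and 9 with siPAF1, while its neighbour dap, a gene for an inhibitor of cyclin-dependent kinases 373 bases away, had 97.5 and 102 CPM with siGFP and 101.3 and 107 with siPAF1 (ratio log2 change -2.14, SE 0.51, edgeR adjusted p = 0.218). In the double knockdown CaBP1, which codes for a calcium-binding protein of the endoplasmic reticulum, had 3 and 4 opposite-strand counts against 19 and 19 with siGFP, while its neighbour CG4455, 391 bases away, had 49.5 and 117 CPM against 38.5 and 89.2 on its own strand (ratio log2 change -2.88, SE 0.77, adjusted p = 0.341). There CG17378 had a ratio change of -2.15 (SE 0.57, adjusted p = 0.341). It had 69 and 54 opposite-strand counts with siGFP, 19 and 34 with siPAF1 and 21 and 9 in the double knockdown, while its neighbour nrv1, a subunit gene of the sodium pump 97 bases away, stayed between 279 and 386 CPM in the 8 libraries. Among members with a higher ratio, Crc had 1 and 3 opposite-strand counts with siGFP and 19 and 18 with siPAF1, but 3 and 1 in the double knockdown (siPAF1 ratio log2 change 2.38, SE 0.92, adjusted p = 0.365).

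**Figure D5:**
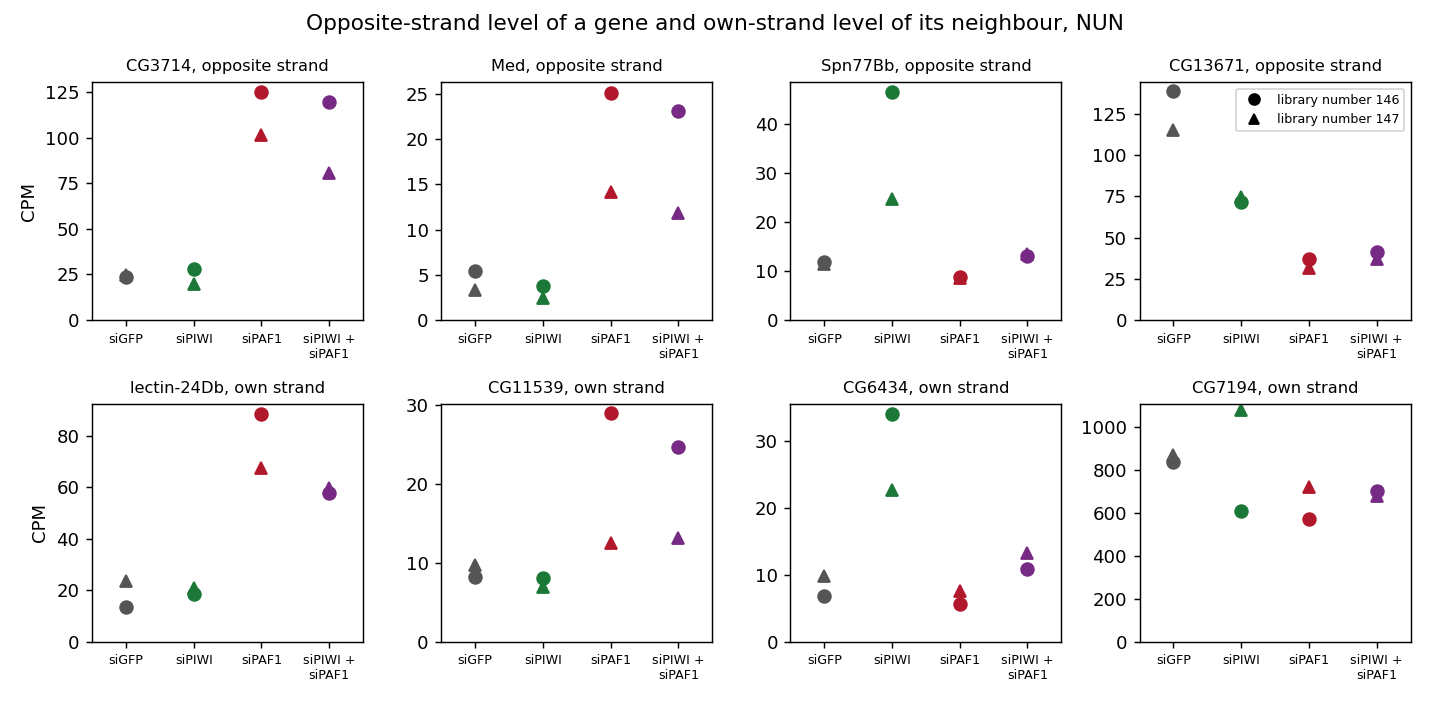
Opposite-strand level of 4 members (upper row, CPM) and own-strand level of the convergent neighbour of each (lower row, CPM) in the 8 NUN libraries, circles for library OSS_146 and triangles for OSS_147. The 4 members are examples and were not picked by a rule. For CG3714 and Spn77Bb the libraries that are high above are also high below. For Med the neighbour lies only slightly above siGFP in the siPAF1 library OSS_147. For CG13671 the neighbour CG7194 had 838 and 867 CPM with siGFP and 571 and 721 with siPAF1.

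Over the 624 members tested on the opposite strand whose neighbour was tested on its own strand, the opposite-strand change went weakly with the neighbour's own-strand change. Spearman's rho across genes was 0.13 with siPIWI, 0.22 with siPAF1 and 0.10 in the double knockdown. Against the own-strand change of the same gene (489 members) it was -0.03, -0.09 and -0.15. Genes are not independent replicates, all values of a comparison share the same 4 libraries, and no test was made.

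On their own strand few members passed the test. Of 1510 members tested among 8215 genes, 1 rose with siPIWI (0.0662%, beside 0.122% of all genes). None passed the threshold with siPAF1 or in the double knockdown, where 0% and 0.0122% of all genes rose and 0% and 0% fell. The targeted atms, at log2 changes of -1.66 and -1.41 there, was among the members that missed it. At an unadjusted p under 0.05, 59 members were higher and 94 lower with siPAF1 (3.91% and 6.23%, beside 4% and 6.17% of all genes). The counts were 9 and 6 with siPIWI (0.596% and 0.397%, beside 1.34% and 0.828%) and 22 and 46 in the double knockdown (1.46% and 3.05%, beside 2.26% and 3.63%). Without the siGFP library OSS_146 the siPAF1 counts were 17 and 32 (1.08% and 2.04%, beside 1.31% and 1.8%). The DESeq2 Wald test called 2 members higher and 6 lower with siPAF1 (0.132% and 0.397%, beside 0.146% and 0.243%), and 1 higher in the double knockdown (0.0662%, beside 0.134%). The member that rose was gogo, an axon guidance gene (chromosome 3L, 20261959 to 20288231, minus strand). It had 83.9 and 83.8 CPM with siGFP, 332 and 213 with siPIWI, 63.7 and 60.1 with siPAF1 and 95.7 and 106 in the double knockdown (siPIWI log2 change 1.70, SE 0.24, edgeR adjusted p = 0.037). Both siPIWI libraries lay above the other 6. Its opposite strand held counts of 1 and 5 in siGFP and 4 and 4 in siPIWI, and its neighbour CG32228, 297 bases away, 1 and 3 and 3 and 1 on its own strand, so no change of antisense RNA was detectable beside it at this depth. The call was lost without either siGFP library (OSS_146, then OSS_147) or without the siPIWI library OSS_146 (log2 change 1.71, 1.70 and 1.34, adjusted p = 0.243, 0.325 and 0.350). It was also lost with a strict count filter (1.70, adjusted p = 0.075), a replicate block (1.69, 0.079), a fit of only the compared groups (1.70, 0.057) and counts over the whole locus (0.73, 0.974).

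Next to atms, the Paf1 gene, lies CG14655, 5 bases away (chromosome 3R, 603219 to 606053, minus strand). Its own-strand counts were 3 and 10 with siGFP, 21 and 7 with siPIWI, 39 and 27 with siPAF1 and 26 and 28 in the double knockdown. In CPM the 4 libraries with Paf1 knockdown held 7.06 to 13.8, above the 1.36 to 4.37 of the others (siPAF1 log2 change 2.05, SE 0.55, edgeR adjusted p = 0.399). The opposite strand of atms held 5 and 10 counts with siGFP and 10 and 11 with siPAF1, and was too low to be tested.

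Genes of the machinery that ends transcripts were followed on their own strand as a further group. Of 18 genes listed under cleavage and polyadenylation, 0 passed the edgeR test in either direction in any knockdown. Their median log2 change was 0.08 with siPIWI, -0.11 with siPAF1 and -0.07 in the double knockdown. The same held for 26 genes of termination, exonucleolytic decay and the Integrator complex (0.02, -0.10 and 0.02), for 5 Paf1 complex genes (0.07, -0.16 and 0.02) and for 6 genes of the endogenous siRNA pathway (0.04, 0.16 and 0.07), which cuts double-stranded RNA such as overlapping sense and antisense transcripts could form. At an unadjusted p under 0.05 with siPAF1, 1 gene of the first group, 2 of the second and 1 of the Paf1 complex were lower, and in the siRNA pathway 1 was higher and 1 lower, beside 4% of all genes higher and 6.17% lower. In the double knockdown 1 gene of the first group was higher, 1 was lower, and 1 of the Paf1 complex was lower. With siPIWI the count was 0. The lower gene of the first group was l(1)G0196 in both knockdowns, at log2 changes of -0.55 with siPAF1 and -0.94 in the double knockdown. Whether l(1)G0196 acts in cleavage and polyadenylation was not checked, so its fall is no result about that machinery. The DESeq2 Wald test called 1 gene of these groups, atms itself with siPAF1. Some of these genes are themselves convergent members. The Paf1 complex gene hyx, the Cdc73 subunit, had 76.2 and 59.3 CPM with siGFP and a log2 change of -0.14 (SE 0.22) with siPAF1. The double-stranded RNA binding protein genes r2d2 and loqs had log2 changes of -0.03 (SE 0.23) and -1.23 (SE 0.45, edgeR adjusted p = 0.423) with siPAF1, and loqs had 49.0 and 17.2 CPM in the siGFP libraries OSS_146 and OSS_147, a spread as large as that change.

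In the cytoplasm few counts lay opposite to the CDS of the members. Their opposite-strand share was 0.34% and 0.39% with siGFP, 1.03% and 0.57% with siPIWI, 0.44% and 0.38% with siPAF1 and 0.34% and 0.30% in the double knockdown. Without Muc14A, which had 2655 opposite-strand counts in the siPIWI library OSS_146, the 8 cytoplasm libraries lay between 0.22% and 0.42%. Over the whole locus the opposite-strand share was instead 26.2% to 34.6% in the cytoplasm and 9.69% to 23.2% in NUN, so the order of the fractions holds for CDS counts only. The authors' windows reached past the gap into the neighbour in 43.9% to 50.1% of member windows in the cytoplasm and 36.6% to 54.4% in NUN. Among the members called in NUN, CG3714, CG13671 and shot had 0 to 2 opposite-strand counts per cytoplasm library. The neighbour of CG13671, CG7194, had 312 to 985 own-strand counts there. The other called members are not given here. Cytoplasm libraries were also smaller, with 663903 to 1759169 own-strand CDS counts over all genes, against 2080840 to 4623982 in NUN.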

How the data were processed

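Strand-specific RNA libraries (NEBNext Ultra Directional, per the labels) were aligned with Bowtie, per the submitters' processing notes; its version, the genome build and the counting tool are not given in the sources used here. Coordinates are those of the deposited files, with starts raised by 1. The authors deposited, per transcript model and strand, raw counts of uniquely aligned reads and of all alignments on the CDS, the 3′ untranslated window and the whole locus. Unique CDS counts were used, since the untranslated windows of 18480 of 24995 models differed between libraries. The column holding a gene's own RNA took 96.9% and 97.5% of CDS counts for plus and minus genes.

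Members, lists and comparisons were chosen with earlier results of these data known. Counts were tested with edgeR 4.0.16 in R 4.3.3 (filterByExpr, then glmQLFit with robust estimation and glmQLFTest on all 8 NUN libraries), with own-strand TMM library sizes for both strands and Benjamini-Hochberg adjustment over all genes tested (threshold 0.05). The biological coefficient of variation was 30.4% on the opposite strand, 21.2% on the own strand and 24.2% in the ratio test. That test set a gene's opposite-strand counts against its neighbour's own-strand counts in 1 model with a block per library. Levels are CPM on the same library sizes. In simulated data for siPAF1 against siGFP, 10 and 86 of 100 opposite-strand changes of log2 1 and 2 were called (3289 genes, 5 false calls), 44 and 99 on the own strand (8155 genes, 3 false) and 10 and 75 in the ratio test (1057 genes, 4 false); the changed genes were drawn from those averaging 20 counts or more.

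Alternatives were DESeq2 1.42.0 (size factors and Wald test), other count filters, all alignments, the whole locus, other models and gap limits, other library sizes, a replicate block, a fit of only the groups compared, 1% of own-strand counts taken off, and each library left out. Named members were those past the threshold, the strongest opposite-strand pairs, the most active pairs and those with the lowest p in the opposite-strand and ratio tests. Symbols were matched by name to a later annotation, whose coordinates were not used.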

Additional observations from a re-analysis of the deposited data

How the results depend on the processing

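Of the alternative counts of members past the threshold, 105 stayed within 1.5 times the reported count, many of them at 0, and 42 did not; the causes were not tested. On the opposite strand, siPIWI gave 2 calls, 1 with a strict filter or a largest gap of 200 bases, 0 with the whole locus, and 0 to 1 with a library left out. For siPAF1 the count was 8, against 33 with no filter, 5 with a strict filter or with 1% of own-strand counts taken off, 0 with only the compared groups or the whole locus, and 0 to 69 with a library left out. The double knockdown gave 3, against 6 with the DESeq2 Wald test or opposite-strand TMM sizes, 8 with no filter, 0 with only the compared groups or the whole locus, and 1 to 4 with a library left out. On the own strand, siPIWI gave 1, against 3 with no filter, 2 with all alignments, 0 with a strict filter, only the compared groups or a gap of 200, and 0 to 1 with a library left out; siPAF1 gave 0, against 8 with DESeq2 and 37 with no filter; the double knockdown gave 0, against 1 and 12. The ratio test gave 0 in each, against 1 with the whole locus for siPIWI and for siPAF1, and for siPAF1 2 with no filter and 0 to 15 with a library left out. Of the single genes, Pep reversed on the opposite strand with siPIWI (0.24 with the whole locus) and Crc in the ratio with siPAF1 (-1.04). Locus windows differ between libraries. Same-numbered libraries deviated together in some pairs only (r from -0.32 to 0.66 on the own strand and -0.16 to 0.45 on the opposite strand, 6 pairs). These values do not settle whether the numbers pair the samples, and the main fit had no block for the numbers. A replicate block gave 4, 19 and 10 opposite-strand calls with siPIWI, siPAF1 and the double knockdown, and 0 own-strand calls with siPIWI. The shares of all genes called with this block, or with another filter, are not given beside these member counts. The counts in this paragraph therefore describe the settings and are no result about the members. Over the whole locus the opposite-strand share was 9.69% and 23.2% with siGFP, 22.8% and 10.499% with siPIWI, 10.8% and 21.5% with siPAF1 and 13.1% and 16.8% in the double knockdown, so that the siGFP libraries held both the lowest and the highest value. The mean share with siGFP, 5.16% over the CDS, was 3.86% without the 10 members richest in such counts; leaving out Muc14A, an alternative chosen after seeing the data, gave 4.32%. Low opposite-strand counts limit the test to 663 members and to large changes.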
